A study of Homo sapiens with 16 samples.

Results

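The BCR, ABL1, NUP214 and XKR3 loci carry the BCR-ABL1 and NUP214-XKR3 fusions of K562, an established human leukaemia line, and their contacts across chromosomes 9 and 22 were followed through a Hi-C digestion series. Hi-C joins DNA ends that lie close together in fixed nuclei and counts the joined pairs, here called contacts. The members were the 20 kb bins of build hg19 that overlap the 4 gene intervals, and 26 such bins were found among 138264 bins listed in the deposited maps. BCR took 7 bins (chromosome 22, 23.523 to 23.66 Mb), ABL1 took 10 (chromosome 9, 133.589 to 133.763 Mb), NUP214 took 6 (chromosome 9, 134.001 to 134.11 Mb) and XKR3 took 3 (chromosome 22, 17.264 to 17.303 Mb). All 26 bins were listed in all 8 libraries. Contacts were read between chromosome 9 from 132.5 to 135 Mb and chromosome 22 from 16.5 to 25 Mb, and within each gene.

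All groups were K562 cells fixed with formaldehyde and digested in nuclei with the restriction enzyme HindIII, and by their labels they differed only in the length of digestion. It lasted 0.25, 1, 3 or 12 h, with 2 replicate libraries per time, 8 in all, and the series states that the short times were meant to reach the most accessible domain boundaries. K562 is 1 line, and no library of a cell without the fusions was analysed here. The labels do not say whether replicates came from separate cultures, so p-values measure only the spread between these libraries, which may be technical. Each time and replicate number was deposited in 2 sequencing runs, and the deeper second run is used here. The labels do not say whether both runs read the same library, so the first run is not taken as an independent check. Replicates 1 and 2 held 114338328 and 62777251 contacts (0.25 h), 121117603 and 78895077 (1 h), 145441737 and 108866651 (3 h) or 176412222 and 153465906 (12 h). Values per library below are given in this order, replicate 1 first, and CPM stands for contacts per 1000000 contacts of the library. Library totals rose with digestion time at both replicate numbers, so depth cannot be told apart from time. Replicate 1 was the deeper library at every time. The share of contacts inside a single 20 kb bin fell from 22.3% ± 2.72 (SD, n = 2) at 0.25 h to 11.6% ± 0.126 at 12 h. The share between different chromosomes went from 9.75% ± 0.136 to 12.0% ± 0.0922. Both shifts of the whole library move with digestion time; their part in the changes of CPM given below was not tested beyond the other scales given beside them.

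A chromosomal translocation joins pieces of different chromosomes, and loci on both sides of the join then lie on 1 DNA molecule. Hi-C maps drawn on the reference genome show such loci with many contacts between chromosomes, with a sharp edge at the breakpoint. BCR encodes a protein with a coiled-coil domain that lets it form oligomers, and ABL1 encodes a tyrosine kinase. In BCR-ABL1, the hallmark of chronic myeloid leukaemia, the BCR part keeps the kinase constantly active. NUP214 encodes a nucleoporin of the cytoplasmic face of the nuclear pore, and XKR3 belongs to a family of membrane proteins related to the XK blood group protein. K562 is known to carry the BCR-ABL1 region in extra copies and to express both fusions.

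BCR and NUP214 are the 5′ partners, so the fusion genes keep their promoters. HindIII cuts at AAGCTT, a palindrome read alike on both strands, and only DNA near such sites can be joined in this assay. The 250 bases before the start of each gene are given 5′ to 3′ from RefSeq (GRCh38.p14, a build other than that of the maps), both on the plus strand, with any HindIII site in capitals. The BCR sequence lies at chr22:23180259-23180508 and the NUP214 sequence at chr9:131125336-131125585 of that build.
BCR: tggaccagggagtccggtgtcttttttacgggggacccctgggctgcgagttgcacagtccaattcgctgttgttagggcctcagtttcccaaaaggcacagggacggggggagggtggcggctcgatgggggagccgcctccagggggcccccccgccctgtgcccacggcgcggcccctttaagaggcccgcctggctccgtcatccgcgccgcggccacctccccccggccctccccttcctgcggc
NUP214: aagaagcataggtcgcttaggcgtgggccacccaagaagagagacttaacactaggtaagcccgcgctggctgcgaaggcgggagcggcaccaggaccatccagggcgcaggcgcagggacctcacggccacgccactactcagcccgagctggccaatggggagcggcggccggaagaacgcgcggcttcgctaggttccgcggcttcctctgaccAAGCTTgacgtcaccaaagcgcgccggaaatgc
The NUP214 sequence holds 1 HindIII site, which begins 33 bases before the start, and the BCR sequence holds none. Among 35116 human promoters of 300 bases (250 before to 50 after a start) in the same table, 2051 (5.84%) hold the site. The promoter listed for ABL1 and both listed for XKR3, the 3′ partners, hold none, nor does the second one listed for NUP214. This describes letters in a window and says nothing of cutting there.

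Contacts of each gene with its own fusion partner fell abruptly at 1 bin border. The border, called an edge below, was placed where contacts with the partner gene fell most steeply in the 4 replicate 1 libraries, and each of the 8 libraries alone gave the same 4 edges. At BCR the last joined bin was chr22:23620001-23640000, with 5095 contacts with ABL1 summed over the libraries, and the next bin, chr22:23640001-23660000, had 0. At ABL1 the first joined bin was chr9:133600001-133620000, with 7604 contacts with BCR, and the bin before it had 0. The last joined bin of NUP214 was chr9:134060001-134080000, with 2454 contacts with XKR3 against 23 in the next. At XKR3 the bin chr22:17280001-17300000 had 5617 contacts with NUP214 and its neighbour towards higher coordinates had 62. In the replicate 2 libraries, which did not place the edges, the values on both sides were 2107 and 0 for BCR, 3197 and 0 for ABL1, 1011 and 12 for NUP214, and 2330 and 29 for XKR3. The first run, in 50 kb bins, had its steepest falls at bins that hold or end at these borders, with 896 and 0, 1233 and 0, 590 and 4, and 1285 and 8 contacts.

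The steps were also present in the share of a bin's contacts that joined the partner gene. The outer BCR bin held 1206 contacts in all, none of them with ABL1 (exact 95% binomial upper bound 0.305%; 3 contacts would be 0.249%), while 21.7% (exact 95% binomial interval 21.2 to 22.3%) of the contacts of the last joined BCR bin were with ABL1. The ABL1 edge went from 9.33% (9.13 to 9.53%) to 0 of 5694 (upper bound 0.0648%; 3 contacts would be 0.0527%). The share with XKR3 at the NUP214 edge went from 3.92% (3.77 to 4.08%) to 0.0402% (0.0255 to 0.0602%). At the XKR3 edge the share with NUP214 went from 18.2% (17.8 to 18.7%) to 0.658% (0.505 to 0.842%). Intervals and limits cover counting error only, and the sources used here do not say whether each contact counted is an independent molecule.

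The kept sides give the orientation of each fusion. BCR, ABL1 and NUP214 lie on the plus strand and XKR3 on the minus strand in RefSeq. The joined side was the 5′ side of BCR, the 3′ side of ABL1, the 5′ side of NUP214 and the 3′ side of XKR3. Both fusions thus had a 5′ part of the first gene beside a 3′ part of the second. RefSeq lists 5 protein-coding genes between ABL1 and NUP214 (LOC128092248, QRFP, FIBCD1, LAMC3 and AIF1L), all on the joined side of the ABL1 edge and of the NUP214 edge. Within 100 kb of the edges, contacts with the partner gene summed to 15969 on the joined side of BCR against 0 on the other side. They were 12706 against 1 for ABL1, 9285 against 56 for NUP214 and 15250 against 97 for XKR3.

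**Figure D1:**
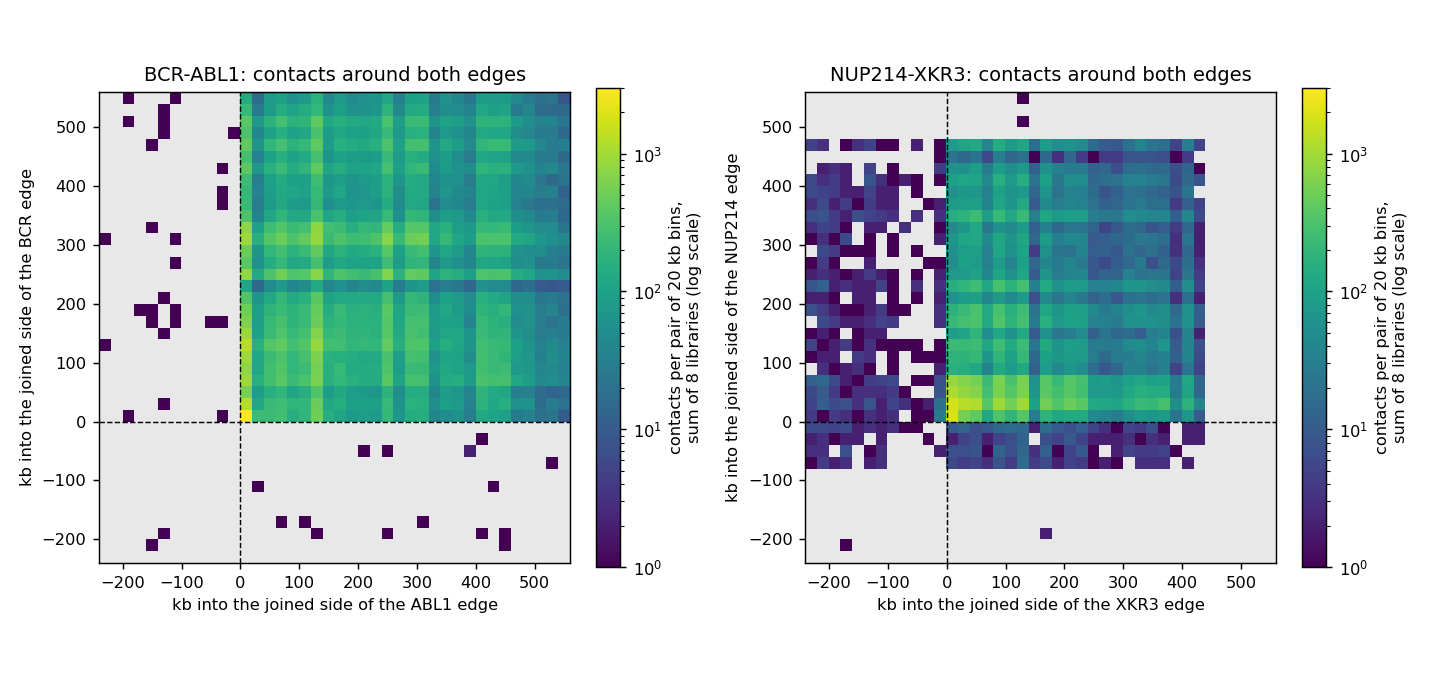
Contacts between 20 kb bins around the edges of BCR and ABL1 (left) and of NUP214 and XKR3 (right), summed over 8 libraries, on a log colour scale. Axes give kb into the joined side of each edge, the dashed lines are the edges, and grey means 0 contacts or a bin that the files do not list. The BCR-ABL1 block fills the corner where both sides are joined, and the NUP214-XKR3 block ends 480 kb from the NUP214 edge, which is the ABL1 edge, and has a weak band of 80 kb beyond the NUP214 edge.

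**Figure D2:**
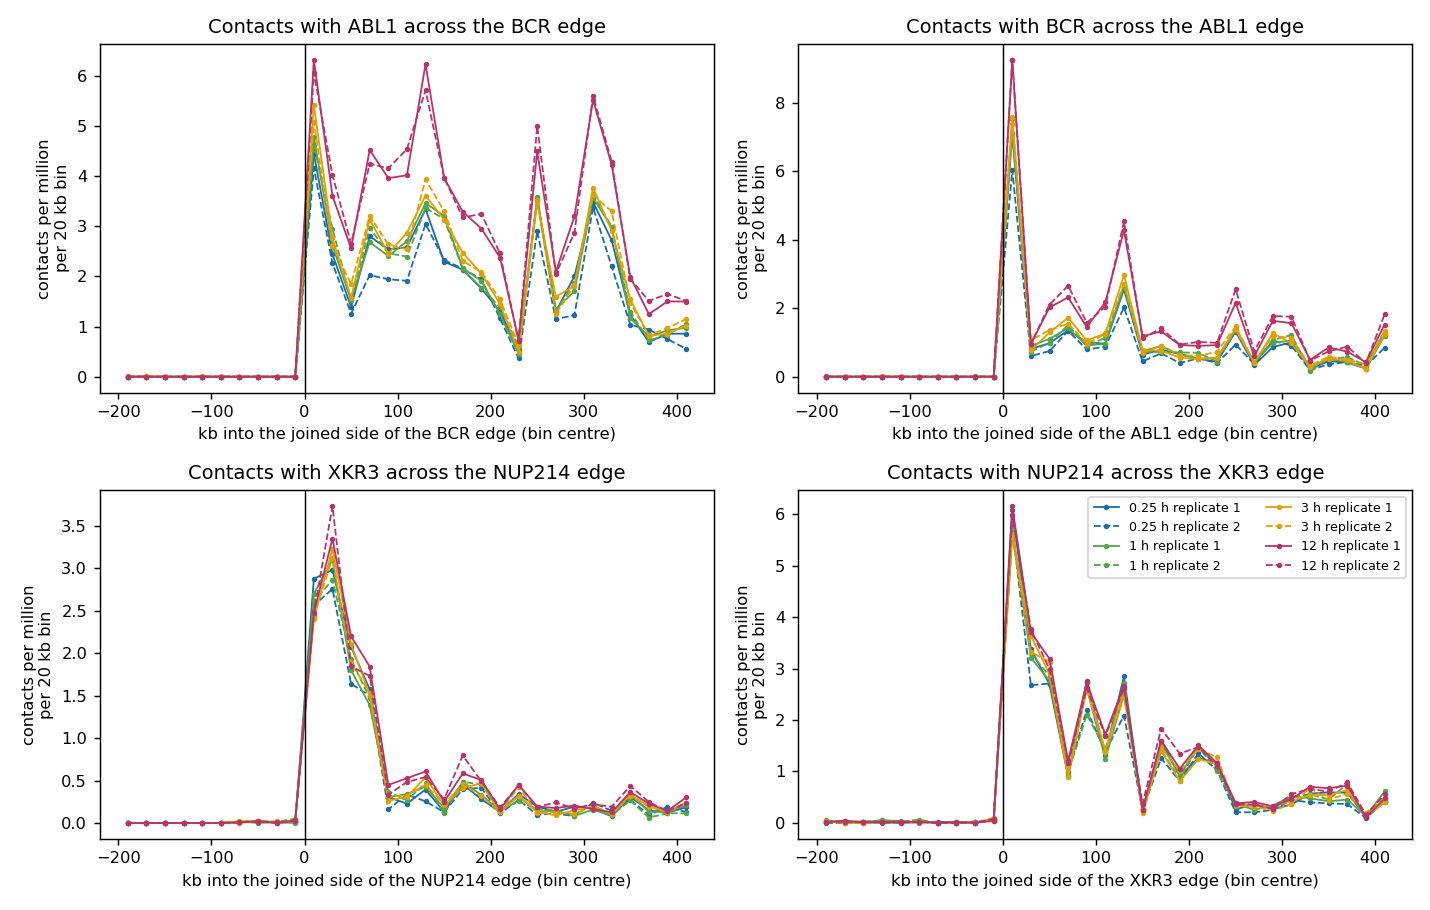
CPM with the partner gene in each 20 kb bin across the 4 edges, 1 line per library, coloured by digestion time (replicate 1 solid, replicate 2 dashed). The x axis is kb into the joined side, and every library steps at the same bin.

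The joined sides had more contacts with each other than neighbours on the reference had across 3 of the 4 borders, all but that in NUP214. For 100 kb on each side, BCR-ABL1 joined contacts numbered 1120 and 530 (0.25 h), 1191 and 811 (1 h), 1557 and 1174 (3 h) and 2426 and 2103 (12 h). The sides that the fusion leaves out had 0 contacts with each other in each of the 8 libraries. Contacts across the BCR edge on chromosome 22 itself were 26 to 143 per library, so that the joined contacts were 16.4 to 24.9 times as many. Across the ABL1 edge on chromosome 9 they were 91 to 429 per library, and the joined contacts were 5.18 to 5.89 times as many. For NUP214-XKR3 the joined contacts numbered 917 to 3130 per library, 4.39 to 4.85 times those across the XKR3 edge. They were 0.694 to 0.805 times those across the NUP214 edge, so more contacts still crossed that edge along chromosome 9 than reached the 100 kb beside the XKR3 edge. The unjoined sides of NUP214 and XKR3 had 0 to 2 contacts per library.

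Past the NUP214 edge, contacts with XKR3 were nearly absent while contacts with BCR went on for 80 kb. In the 80 kb past that edge (chr9:134080001-134160000) contacts with XKR3 were 3 to 12 per library, against 531 to 1741 in the 80 kb before it. Contacts with BCR over the same stretches were 46 to 214 and 181 to 831, a ratio of 0.203 to 0.258. From 134160001 onwards contacts with both genes were 0 or 1 per bin over all libraries in the first 3 bins. Chromosome 13 shared this border: its contacts with the 80 kb past the NUP214 edge were 2731 to 10222 per library, and with the next 80 kb 5 to 18.

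The 2 fusions shared a block of contacts. In 100 kb bins along chromosome 22, ABL1 had most contacts at chr22:23500001-23600000, which overlaps BCR, with 15178, and 14745 at chr22:23300001-23400000, but 1 at chr22:23700001-23800000. Beside XKR3 it had 3816 contacts at chr22:17200001-17300000 (240 to 813 per library) against 39 in the next 100 kb (3 to 10 per library). NUP214 had 15250 contacts in the 100 kb up to the XKR3 edge and 97 past it. Near BCR it had 4481 at chr22:23300001-23400000 and 4269 at chr22:23500001-23600000. ABL1 thus had contacts near XKR3, and NUP214 near BCR; these counts do not show which of them involved a fused molecule. Of all 100 kb pairs between chromosomes 9 and 22, the one with most contacts was chr9:134000001-134100000 with chr22:17200001-17300000, NUP214-XKR3, with 15229. Outside the genes, the pair with most contacts was chr9:133800001-133900000 with chr22:23300001-23400000, with 6887, and the fifth had 3009. The whole window held 274229 contacts, 73.0% of those between chromosomes 9 and 22, in 0.293% of the 100 kb pairs. That is 129 contacts per pair against 0.140 elsewhere.

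BCR and XKR3, both on chromosome 22 and 6220 to 6380 kb apart on the reference, also had more contacts than autosomal pairs at such distances. Their contacts numbered 51 and 26 (0.25 h), 64 and 42 (1 h), 75 and 67 (3 h) and 129 and 111 (12 h). This was 14.1 to 24.8 times the mean of autosomal pairs at the same distances, and 5.51 to 7.13 times in the balanced signal. ABL1 and NUP214, 240 to 520 kb apart on chromosome 9, had 3.97 to 4.88 times the mean in contacts and 0.414 to 0.461 times in balanced signal. In balanced signal each bin is scaled to the same total, so both ratios depend, in different ways, on how many contacts a bin has. The part of copy number in either was not tested.

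The genes differed widely in the number of contacts their bins had. Relative to the median bin of a library, the 6 joined bins of BCR had medians of 1.79 to 4.16 over the 8 libraries, and its bin past the edge had 0.0924. ABL1 bins on the joined side had 1.24 to 8.31, and the bin before its edge 0.491. The first 3 bins of NUP214 had 11.9, 14.6 and 14.97, its last joined bin 5.59, and the 2 bins past its edge 4.94 and 2.47. XKR3 bins had 3.08 and 2.75 on the joined side and 0.853 past it. Over longer stretches the median was 0.360 for 400 kb below the ABL1 edge, 3.33 for 400 kb above it, 13.2 for the last 80 kb before the NUP214 edge, 2.62 for 80 kb past it and 0.457 after that. On chromosome 22 it was 3.41 for 400 kb before the BCR edge and 0.204 for 400 kb past it, and 1.81 and 0.601 on the 2 sides of the XKR3 edge. Bins differ in copy number, mappability and HindIII sites, and these cannot be told apart here.

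**Figure D3:**
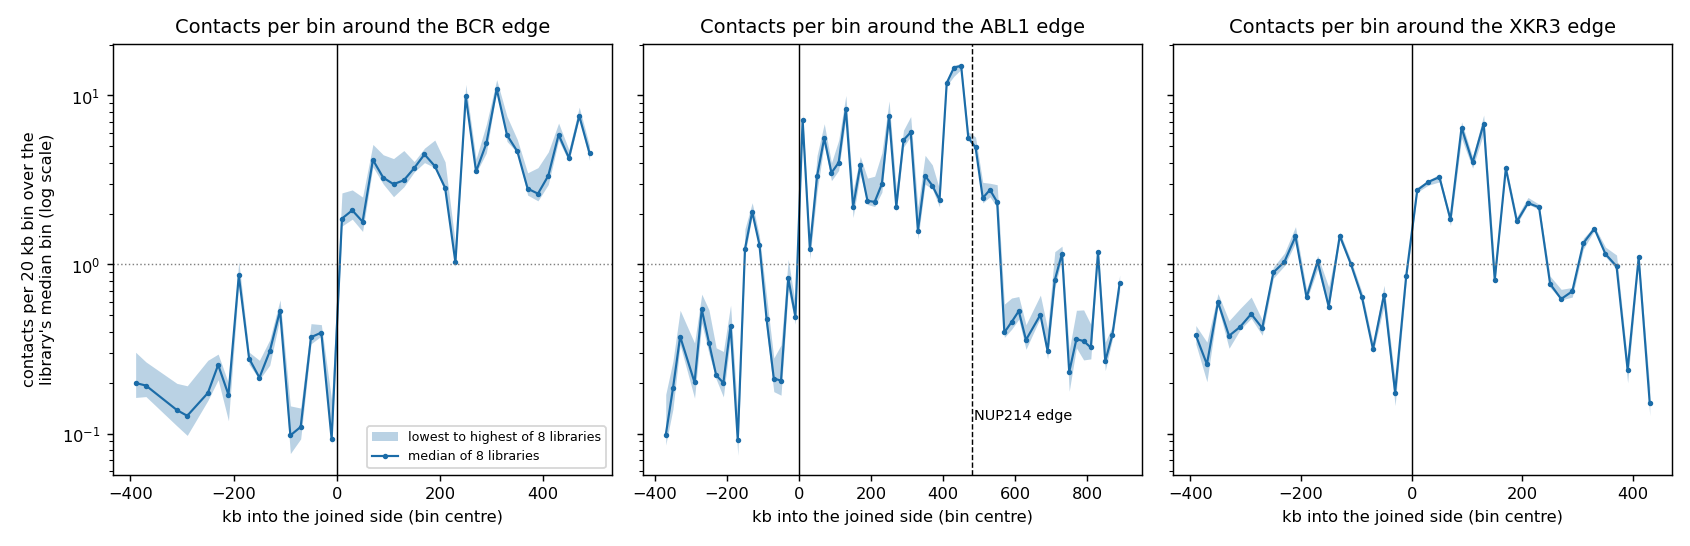
Contacts per 20 kb bin over the median bin of the library (log scale) against kb into the joined side of the BCR, ABL1 and XKR3 edges, as the median (line) and range (band) of 8 libraries. The dotted line is the median bin, and the dashed line in the middle panel is the NUP214 edge. Levels step up at all 3 edges, and the highest bins, near 15 times the median, are the NUP214 bins before the NUP214 edge.

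The step at the start of NUP214 lay at 134.0 Mb, inside the joined stretch. Between the bins that start at 133980001 and 134000001, contacts per bin went from 2.41 to 11.9 times the median bin. Contacts with XKR3 went from 313 to 1536 and with BCR from 312 to 1316 summed over the libraries.

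Contacts between the genes were then compared across digestion times. BCR-ABL1 contacts numbered 1851 and 851 (0.25 h), 2022 and 1334 (1 h), 2647 and 1950 (3 h) and 4404 and 3938 (12 h). The mean rose from 14.9 ± 1.86 CPM (SD, n = 2) at 0.25 h through 16.8 ± 0.151 and 18.1 ± 0.204 to 25.3 ± 0.492 at 12 h, 1.70 times the first value. The ranges of the 4 times did not overlap, although the higher 0.25 h library, at 16.2, lay close below the 1 h libraries, at 16.7 and 16.9. Lack of overlap between 0.25 h and 12 h was common. It held for 214 of the 267 pairs of 100 kb bins tested below (80.1%). The rise with digestion time passed the test (Spearman's rho 0.98, exact two-sided permutation p = 0.000794, the smallest that the 2520 arrangements give, 0.00476 after Benjamini-Hochberg adjustment over the 12 trends tested here). Pearson's r with log2 hours was 0.92 (exact permutation p = 0.000794). With the 12 h libraries left out r was 0.86, and with the 0.25 h libraries left out 0.95, and 6 libraries can give no p below 0.0222 for rho.

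NUP214-XKR3 contacts did not show a rise that passed. They numbered 1089 and 532 (0.25 h), 1090 and 705 (1 h), 1352 and 981 (3 h) and 1746 and 1507 (12 h). The means were 8.999 ± 0.742, 8.97 ± 0.0450, 9.15 ± 0.201 and 9.86 ± 0.0548 CPM in order of time (SD, n = 2 each), 1.10 times from first to last (rho 0.68, exact permutation p = 0.0825, adjusted 0.110; r 0.68, p = 0.0579). The sign of rho was negative in the deposited balanced signal (-0.54, adjusted p = 0.381 by the exact permutation test), relative to contacts between chromosomes (-0.73, adjusted p = 0.0939) and relative to contacts outside the bin itself (-0.15, adjusted p = 0.761). With genes widened by 100 kb the trend passed (rho 0.88, adjusted p = 0.0248 by the exact permutation test). Without replicate 1 of 0.25 h, at 9.52 the highest library of the 0.25 and 1 h times, rho was 0.97 (adjusted p = 0.00952 by the exact permutation test). The ratio of BCR-ABL1 to NUP214-XKR3 contacts went from 1.70 and 1.60 at 0.25 h through 1.86 and 1.89, and 1.96 and 1.99, to 2.52 and 2.61 at 12 h, with no overlap between times. Contacts were summed over all bins of each gene, so the level of the ratio is not corrected for gene length. A trend test of this ratio was added after both trends had been seen (rho 0.98, exact permutation p = 0.000794; r 0.96, p = 0.000794; rho 0.96, p = 0.0222, without the 12 h libraries). On the other scales, also added after seeing the data, some neighbouring times overlapped. In balanced signal the ratio was 3.55 and 3.71 at 0.25 h and 3.98 and 3.93 at 12 h (rho 0.88, exact permutation p = 0.0103, not adjusted). Over the trans expectation explained below it was 0.829 and 0.808 against 0.833 and 0.813, without a trend that passed (rho 0.39, exact permutation p = 0.361). Over the expectation from other chromosomes it was 0.705 and 0.699 against 0.771 and 0.746 (rho 0.83, exact permutation p = 0.0198, not adjusted).

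The cross pairs were lower. BCR-NUP214 contacts went from 3.64 ± 0.329 CPM at 0.25 h to 5.76 ± 0.485 at 12 h (SD, n = 2) and rose by the test (rho 0.88, exact permutation p = 0.0103, adjusted 0.0310; r 0.87, p = 0.00476). That call was lost without replicate 2 of 3 h (adjusted p = 0.0635, exact permutation) and without either 12 h library (0.114 each). ABL1-XKR3 contacts went from 1.43 ± 0.0530 to 1.82 ± 0.0310 CPM (rho 0.73, exact permutation p = 0.0548, adjusted 0.0821; r 0.77, p = 0.0278), and this trend passed without replicate 2 of 0.25 h (rho 0.92, adjusted 0.0254) and with genes widened by 100 kb (rho 0.83, adjusted 0.0340). At every time the order in CPM was BCR-ABL1, NUP214-XKR3, BCR-NUP214 and ABL1-XKR3, and the ranges of neighbours in it did not overlap. CPM was summed over all bins of both genes and not corrected for gene length. BCR and ABL1 took 7 and 10 bins, NUP214 and XKR3 took 6 and 3. Among single 100 kb pairs, NUP214-XKR3 led with 15229 contacts over all libraries, against 9084 for the highest BCR-ABL1 pair.

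The rise of BCR-ABL1 depended on what contacts were counted against. In the deposited balanced signal BCR-ABL1 took 4.61 ± 0.199, 4.65 ± 0.136, 4.80 ± 0.0343 and 4.74 ± 0.0951 per 1000000 of the total signal in order of time (rho 0.49, exact permutation p = 0.247, adjusted 0.423). Relative to all contacts between chromosomes rho was 0.78 (exact permutation p = 0.0349, adjusted 0.0838). The same settings ended the call for BCR-NUP214, with rho 0.05 (adjusted p = 0.946) and 0.73 (adjusted p = 0.0939) by the exact test. NUP214-XKR3 took 1.27 ± 0.0938, 1.28 ± 0.0359, 1.23 ± 0.00171 and 1.198 ± 0.0131 of the same total (SD, n = 2 each). In the first run rho for BCR-ABL1 was 0.93 (exact permutation p = 0.00317, adjusted 0.0190).

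**Figure D4:**
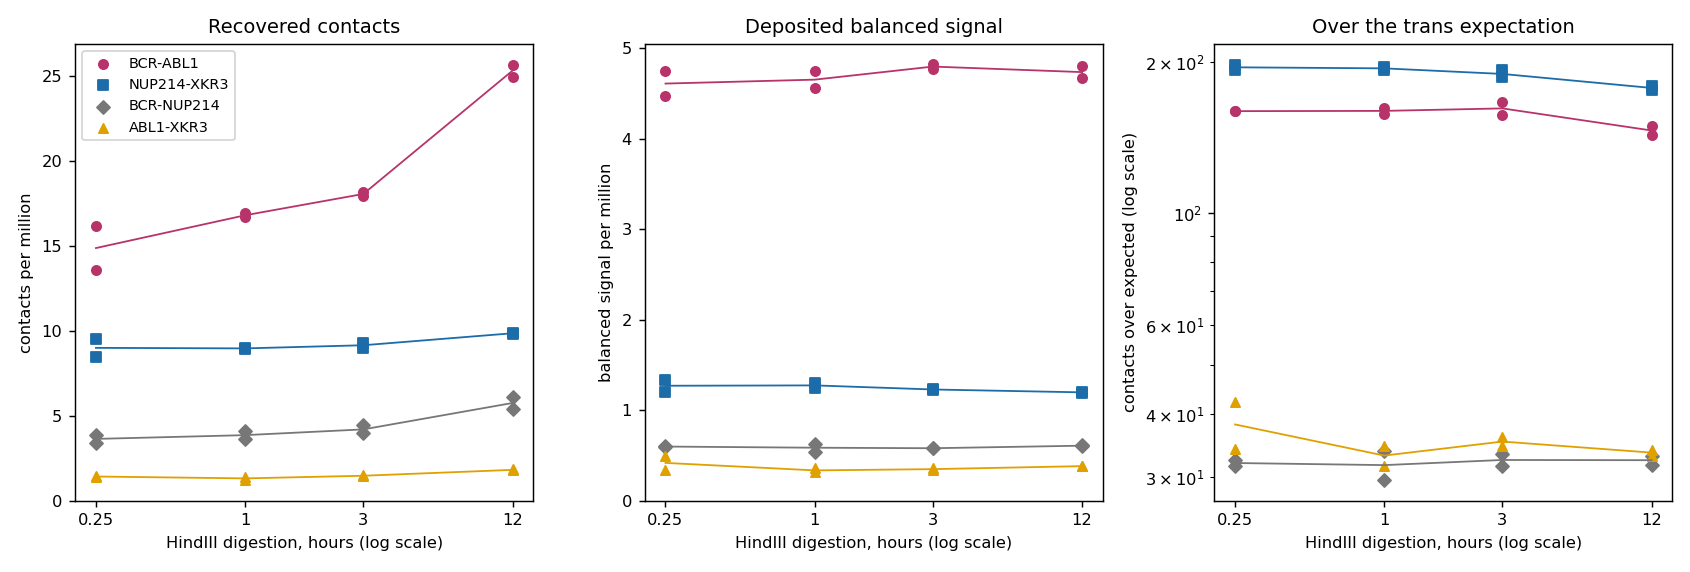
Values of the 4 gene pairs in each of 8 libraries against hours of HindIII digestion (log scale), as CPM, balanced signal per 1000000 of the total and contacts over the trans expectation (log scale); lines join the means of 2. BCR-ABL1 climbs from 14.9 to 25.3 CPM in the left panel and stays between 4.47 and 4.82 in balanced signal.

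A further scale set each pair against the contacts that the 2 genes would share if their contacts between chromosomes were spread at random, the trans expectation, in which the fusion contacts themselves are included. BCR-ABL1 was at 159 ± 0.284, 160 ± 3.17, 161 ± 6.61 and 146 ± 4.41 times it in order of time (SD, n = 2), with no trend that passed (rho -0.59, exact permutation p = 0.153, adjusted 0.184; r -0.64, p = 0.0817). NUP214-XKR3 was at 195 ± 3.24, 194 ± 1.71, 189 ± 4.30 and 177 ± 2.33 times it and fell with time (rho -0.88, exact permutation p = 0.0103, adjusted 0.0310; r -0.88, p = 0.00397). The call was lost without either 3 h library (adjusted p = 0.0544 and 0.0635, exact permutation) and without either 12 h library (0.114 each), in the first run (rho -0.29, exact permutation p = 0.513, adjusted 0.586) and with genes widened by 100 kb (rho -0.54, adjusted 0.208). BCR-NUP214 was at 32.0 ± 0.573 times it at 0.25 h and 32.4 ± 0.942 at 12 h (rho 0.15, exact permutation p = 0.761), and ABL1-XKR3 was 38.1 ± 5.75 and 33.5 ± 0.638 (rho -0.39, exact permutation p = 0.361), which passed with genes widened by 100 kb (rho -0.83, adjusted 0.0340). On this scale NUP214-XKR3 stood above BCR-ABL1 at every time, the reverse of their order in CPM, which is summed over bins and not corrected for gene length. The level depends on which contacts enter the expectation. With only contacts to chromosomes other than 9, 13 and 22, an alternative chosen after seeing the data, BCR-ABL1 was at 651 ± 27.6 times it at 0.25 h and 606 ± 19.8 at 12 h. NUP214-XKR3 was then at 927 ± 34.1 and 799 ± 7.35 times it (SD, n = 2).

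Pairs of 100 kb bins of chromosomes 9 and 22 were tested with limma, 0.25 h against 12 h, over the 267 pairs with a mean of at least 10 contacts per library, all of which lay in the window. Of these, 138 were lower at 0.25 h (51.7%) and 0 higher at an adjusted p under 0.05 (161 differed in either direction at an unadjusted p under 0.05). The median difference over all pairs was -0.42 on the log2 scale of CPM plus 0.1, and differences of the genes have to be read against it. All 4 BCR-ABL1 pairs with enough contacts, of 6, were lower at 0.25 h, with differences of -0.99 to -0.44 and a median of -0.91. The one with most contacts, chr9:133600001-133700000 with chr22:23500001-23600000, had 884 and 385 at 0.25 h and 2192 and 1933 at 12 h and differed by -0.85 ± 0.08 (SE; limma adjusted p = 2.53e-22, a value that pools the spread over all pairs tested). None of the 3 NUP214-XKR3 pairs tested passed, and 2 of the 3 held only 5 to 17 contacts per library, so the count rests in effect on 1 pair. That main pair, with 1807 and 898 contacts at 0.25 h and 2993 and 2529 at 12 h, differed by -0.15 ± 0.07 (limma adjusted p = 0.066). In BCR-NUP214, 3 of 4 tested pairs were lower at 0.25 h, and in ABL1-XKR3 both tested pairs were. With libraries scaled by the median of ratios, which takes the median shift away, 16 of 267 pairs were lower and 7 higher, and the counts became 3 of 4 lower for BCR-ABL1, 1 of 3 higher for NUP214-XKR3 and 0 for the others. The number of BCR-ABL1 calls was 4 with any 1 library left out. NUP214-XKR3 had 1 lower call without either 0.25 h library. Over all pairs the 138 lower calls became 87 without replicate 2 of 0.25 h and 65 without replicate 2 of 12 h. BCR-NUP214 had 1 without replicate 1 of 12 h and 2 without replicate 2, and ABL1-XKR3 had 1 and 0 there and 1 without replicate 1 of 0.25 h. With no filter on low values, when 38 of 71145 pairs were lower and 6 higher, BCR-NUP214 had 1 lower call, NUP214-XKR3 1 and ABL1-XKR3 0, each of 4 pairs. In the first run, when 27 of 82 pairs were lower, BCR-NUP214 had 1 and ABL1-XKR3 0, each of 2, and BCR-ABL1 had 4 of 4.

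Single bins of the genes were lower at 0.25 h than at 12 h in all contacts outside the bin itself. limma called 96364 of 137888 bins lower at 0.25 h (69.9%) and 4835 higher (3.51%), with a median difference over all bins of -0.23. All 7 BCR bins (median -0.76), all 10 ABL1 bins (-0.61), all 6 NUP214 bins (-0.32) and all 3 XKR3 bins (-0.27) were called lower. Of these calls that of the ABL1 bin chr9:133620001-133640000 was the closest to the threshold (difference -0.20 ± 0.09, limma adjusted p = 0.0493). Calls of ABL1 numbered 9 of 10 with no filter on low values, with only the 0.25 h and 12 h libraries, and with any 1 library left out except replicate 1 of 0.25 h. BCR had 3 of 4 in the first run, when 34045 of 55252 bins were lower. The first BCR bin went from 3255 and 1594 contacts at 0.25 h to 8151 and 7598 at 12 h, a difference of -0.83 ± 0.05 (SE; limma adjusted p = 3.89e-08). A call of this kind was thus common to most bins, and the genes differed in size of the difference, with the BCR median furthest below that of all bins. With median-of-ratios scaling, which moved the median of all bins to near 0 and the split to 37861 lower and 38122 higher, 7 BCR bins and 9 ABL1 bins were still lower. NUP214 then had 3 lower and 1 higher, and XKR3 had none. At 1 h and 3 h, compared with the same 12 h libraries, BCR medians were -0.60 and -0.48 and ABL1 medians -0.48 and -0.40, beside -0.16 and -0.14 for all bins. XKR3 medians were -0.23 and -0.15.

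Contacts to other chromosomes were lower at 0.25 h as well. In 130898 bins tested, 68375 were lower at 0.25 h (52.2%) and 216 higher (0.165%), with a median of -0.27. The tested bins of each gene were all lower: 6 of 6 for BCR (median -0.63), 10 of 10 for ABL1 (-0.58), 6 of 6 for NUP214 (-0.32) and 3 of 3 for XKR3 (-0.33). The BCR bin past the edge had too few such contacts to be tested. With 1 library left out, calls were lost for ABL1 (9 of 10 without replicate 2 of 0.25 h or replicate 1 of 12 h), XKR3 (2 of 3 without replicate 1 of 12 h) and NUP214 (5 of 6 without replicate 2 of 12 h). XKR3 had 1 of 2 in the first run, when 5971 of 27754 bins were lower. Without replicate 2 of 12 h, 38418 of all bins were lower. With median-of-ratios scaling, when 5283 of all bins were lower and 3444 higher, the lower calls of the genes were 6, 6, 1 and 0.

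The fusion partner's chromosome and chromosome 13 took large shares of the contacts of the genes with other chromosomes, given here as sums over the libraries. Chromosome 9 took 33.2% of the contacts of BCR with other chromosomes, and chromosome 13 took 16.3%. Of those of ABL1, chromosome 22 took 42.9% and chromosome 13 took 16.96%. NUP214 shared 38.2% with chromosome 13 and 25.9% with chromosome 22. XKR3 shared 39.7% with chromosome 9, 10.2% with chromosome 13 and 9.47% with chromosome 2; the last 2 overlapped over the libraries, at 8.97 to 11.5% and 9.02 to 10.6%. Over all bins off the same chromosome, chromosome 9 took 3.801%, chromosome 22 took 1.73%, chromosome 2 took 7.16 to 7.31% and chromosome 13 took 3.32 to 3.40%. Contacts with other chromosomes made up 50.5% to 52.5% of all contacts of BCR as means of the times, and 53.1% to 55.1% for ABL1, 44.2% to 48.3% for NUP214 and 47.3% to 49.5% for XKR3. Over the whole genome the means were 9.75% to 12.0%, on a slightly different measure. The genome share counts each contact once, while the gene shares count contacts at each bin end that lies in the gene.

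Contacts within each gene moved in different directions. BCR rose from 19.7 ± 1.52 CPM at 0.25 h to 29.5 ± 0.507 at 12 h (SD, n = 2; rho 0.98, exact permutation p = 0.000794, adjusted 0.00476; r 0.96, p = 0.000794). ABL1 rose from 87.5 ± 2.99 to 96.3 ± 2.26 (rho 0.83, exact permutation p = 0.0198, adjusted 0.0397; r 0.81, p = 0.0135). NUP214 fell from 175.6 ± 0.171 to 150.4 ± 5.83 (rho -0.83, exact permutation p = 0.0198, adjusted 0.0397; r -0.85, p = 0.00794). XKR3 was 7.80 ± 0.327 and 6.70 ± 0.234 (rho -0.73, exact permutation p = 0.0548, adjusted 0.0821; r -0.73, p = 0.0437). With genes widened by 100 kb the calls of BCR (rho 0.68, adjusted p = 0.124 by the exact permutation test) and NUP214 (rho -0.54, adjusted 0.208) were lost and XKR3 passed (rho -0.93, adjusted 0.00952). In the first run those of ABL1 (rho 0.68, adjusted p = 0.198, exact permutation) and NUP214 (rho -0.83, adjusted 0.0595) were lost.

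Those sums mix 2 kinds of contact. Contacts between different bins of a gene went from 11.4 ± 0.579 to 20.6 ± 0.212 CPM in BCR, from 43.4 ± 5.07 to 64.1 ± 1.93 in ABL1, from 85.7 ± 6.76 to 93.4 ± 4.39 in NUP214 and from 3.01 ± 0.0661 to 3.43 ± 0.0198 in XKR3. Contacts inside a bin went from 8.22 ± 0.944 to 8.93 ± 0.295 in BCR, from 44.1 ± 2.08 to 32.2 ± 0.323 in ABL1, from 89.8 ± 6.59 to 57.0 ± 1.44 in NUP214 and from 4.79 ± 0.261 to 3.27 ± 0.214 in XKR3. The ranges at 0.25 h and 12 h overlapped inside BCR bins and between NUP214 bins, and in no other of these 8 comparisons. The ABL1 fall inside bins and its lack of overlap rested largely on 1 bin, chr9:133760001-133780000, described below. Inside the other ABL1 bins tested, 0.25 h minus 12 h was -0.31 to 0.44 on the log2 scale of CPM plus 0.1. Lack of overlap was common to most bins. Of all single bins tested, 87.6% had ranges that did not overlap for contacts inside the bin, and 85.2% for all contacts outside it. In balanced signal own contacts of BCR and ABL1 turned direction (rho -0.78, adjusted p = 0.0838, and rho -0.88, adjusted p = 0.0413, by the exact permutation test). ABL1 also turned relative to contacts between chromosomes (rho -0.59) and to contacts outside the bin itself (rho -0.39), with neither passing. With any 1 library of 3 h or 12 h left out the ABL1 call was lost, and without any 1 of the 0.25 h or 12 h libraries, or replicate 2 of 3 h, that of NUP214 was lost (adjusted p = 0.0635 to 0.133 for both genes, exact permutation). XKR3 passed without replicate 1 of 3 h (rho -0.92, adjusted p = 0.0286).

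**Figure D5:**
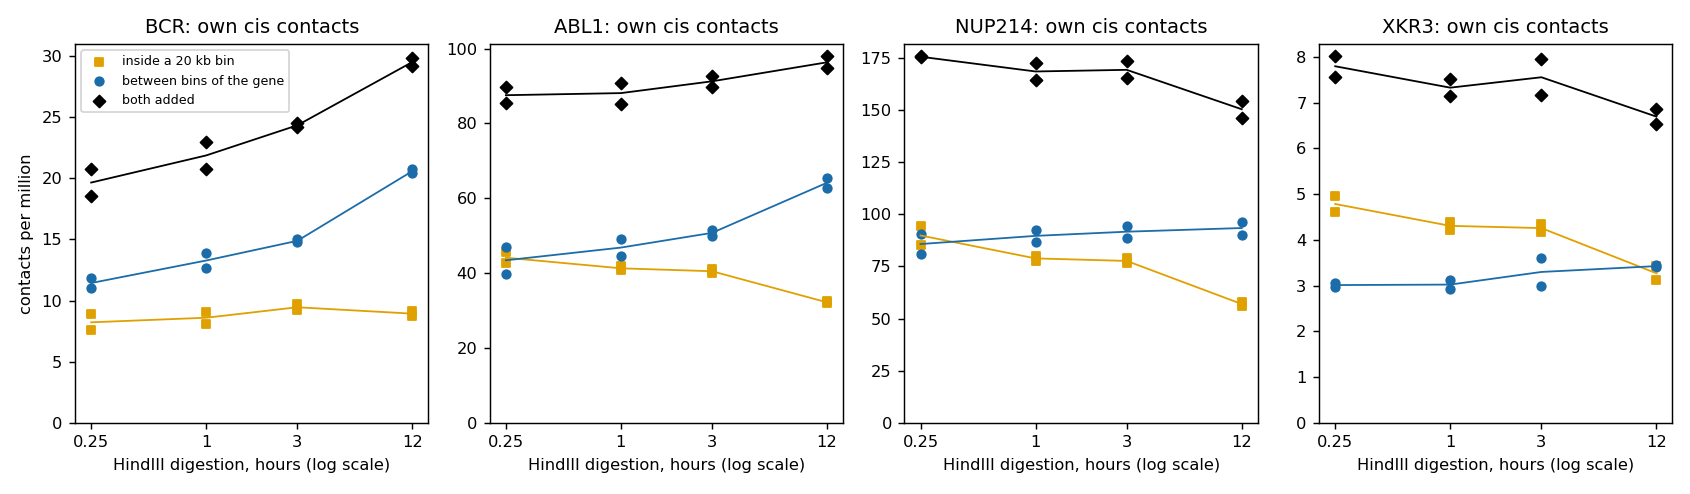
CPM within each gene in each of 8 libraries against hours of HindIII digestion (log scale), inside a 20 kb bin, between bins of the gene, and both added; lines join the means of 2. In ABL1, NUP214 and XKR3 the summed contacts inside bins drop towards 12 h, while in BCR they stay between 7.55 and 9.72. The ABL1 drop lies largely in 1 bin, chr9:133760001-133780000.

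Inside single bins, 74.3% of 86596 bins tested were higher at 0.25 h than at 12 h by limma and 0.568% lower, with a median of +0.72. Higher calls numbered 0 of 3 tested BCR bins, 2 of 7 ABL1 bins, 3 of 6 NUP214 bins and 2 of 3 XKR3 bins. BCR had 2 bins lower at 0.25 h. With no filter on low values, when 68931 of 134274 bins were higher and 1821 lower, BCR had 4 of 7 lower. In the first run, when 21356 of 27867 bins were higher and 56 lower, BCR had 1 of 2 lower, ABL1 1 of 4 lower and XKR3 0 of 1 higher. The first of the 2 BCR bins called lower in the second run had 196 and 85 contacts inside it at 0.25 h and 363 and 334 at 12 h. Its difference was -0.45 ± 0.13 (SE, limma adjusted p = 0.00865). With the replicate number as a block, ABL1 gained 1 lower call and NUP214 1 higher call. Without replicate 1 of 0.25 h, ABL1 had 3 lower calls and NUP214 1, and without replicate 2 of 0.25 h NUP214 had 5 higher calls, XKR3 3 and BCR 1. Without either 12 h library BCR had 1 lower call. Under median-of-ratios scaling, which split all bins into 26241 higher and 22128 lower, the calls were 3 lower in BCR, 1 higher and 6 lower in ABL1, 1 higher and 4 lower in NUP214 and 1 lower in XKR3.

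Inside the gene bins tested, 2 differences stood far above the rest, of which the next was 0.93. The last ABL1 bin (chr9:133760001-133780000) had 918 and 992 contacts inside it (0.25 h), 807 and 595 (1 h), 755 and 662 (3 h) and 389 and 389 (12 h). Its difference was 2.21 ± 0.23 (SE; limma adjusted p = 4.70e-06). The last joined NUP214 bin (chr9:134060001-134080000) had 853 and 769, 762 and 489, 790 and 616, and 387 and 355 contacts in the same order, a difference of 2.04 ± 0.17 (limma adjusted p = 1.92e-06). Both held more contacts at 0.25 h than at 12 h although the 12 h libraries were deeper. At 0.25 h the counts of the 2 replicates were similar although replicate 1 held 114338328 contacts in all and replicate 2 held 62777251. Relative to library totals the replicates thus disagreed, with replicate 2 the higher in both bins. The ABL1 interval ends at 133.763 Mb, so most of its last bin lies past the gene. These bins were singled out after their values had been seen, and how many of all bins differed by as much was not counted.

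Distance through the junction was counted by laying the joined sides end to end. BCR-ABL1 contacts per bin pair, as the median over libraries, were 2.97 times the autosomal mean of pairs on 1 chromosome up to 40 kb through the junction, 1.84 times from 40 to 100 kb and 4.39 times from 400 to 600 kb. NUP214-XKR3 gave 2.82 times up to 40 kb, 4.04 times from 40 to 100 kb and 1.21 times from 400 to 600 kb. The balanced signal stayed below the mean in all classes, at 0.498 to 0.891 times for BCR-ABL1 and 0.427 to 0.473 times for NUP214-XKR3. In the longest class the ratios of contacts of BCR-ABL1, 3.96 to 6.16 over the libraries, did not overlap those of NUP214-XKR3, 1.15 to 1.42. The same held from 200 to 400 kb, at 3.26 to 4.90 against 2.03 to 2.36. From 40 to 100 kb BCR-ABL1 was the lower, at 1.58 to 2.43 against 3.78 to 4.14. The ranges overlapped up to 40 kb and from 100 to 200 kb. Ratios of contacts are not corrected for how many contacts a bin has.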

How the data were processed

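Hi-C maps of 8 K562 libraries (4 HindIII digestion times, 2 replicates each) were used, deposited in 2 sequencing runs, with 62777251 to 176412222 contacts per library in the second run; whether both runs read the same libraries is not given in the sources used here. The deposited values are balanced signal per pair of bins (50 kb in the first run, 20 kb in the second), which the authors scaled so that every listed bin of a file has the same total. HiC-Pro 2.11.1, Bowtie2 2.3.4.1 and build hg19 are named, per the submitters' processing notes; the filters and the balancing tool are not given in the sources used here. Balancing takes away differences in total contacts between bins, so whole contacts were recovered by finding each bin's factor, and pairs were called whole within 0.01; the totals equalled those of the files in all 16. The recovery was tested on simulated data, where it returned 219873 of 219873 pairs.

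Trends over time used Spearman's rho with log2 hours and an exact two-sided permutation test, adjusted by Benjamini-Hochberg over 12 trends. Bins with a mean of at least 50 contacts, and 100 kb pairs with at least 10, were compared with limma 3.58.1 (R 4.3.3) on log2 of contacts per 1000000 plus 0.1, all 4 times in 1 fit, at an adjusted p of 0.05. The 3 contrasts share the 12 h libraries. In simulated data 200 of 200 changed bins were recovered for all contacts, 197 of 200 inside bins, 197 of 200 between chromosomes and 46 of 53 for pairs. Changed rows were set 2-fold higher at 12 h, more than most differences reported for the genes. Smaller differences and a shift of most rows were not simulated. Simulated replicates had little spread beyond counting error, less than the 0.25 h libraries showed for BCR-ABL1, at 16.2 and 13.6 CPM. High recovery there does not carry over to the real spread, and false calls are not given here. Python 3.11.15, numpy 2.4.6, pandas 2.3.3, scipy 1.17.1, numba 0.67.0 and matplotlib 3.10.9 were used.

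Deviations of same-numbered replicates from their group means correlated at 0.106 to 0.256 in all pairs of times. Replicate 1 was the deeper library at every time, so pairing of the libraries cannot be told apart from depth. The main tests left out the replicate numbers, which come from the labels, and the replicate block was fitted as an alternative. The genes, lists and tests were chosen with earlier results of these data known. The text names the 4 genes with all their bins and at most 5 pairs of 100 kb outside them, those with most contacts. Alternatives were the balanced signal, the first run, wider genes, other totals to scale by, the replicate block, other filters and pseudocounts, median-of-ratios scaling, and each library or an end time left out.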

Additional observations from a re-analysis of the deposited data

How the results depend on the processing

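Of 200 alternatives to the 12 trends, 137 kept direction and call, 40 lost the call and 8 gained it. Another 6 came to a rho of 0 without a change of call, and 9 turned direction, 4 of them for trends that had passed. The causes were not tested. This tally includes the replicate block, which cannot change rho. It also includes fits without an end time, where few libraries limit the smallest p. Values here are rho. In balanced signal BCR-ABL1 gave 0.49, BCR-NUP214 0.049 and NUP214-XKR3 -0.54, values over expectation turned to 0.29 for BCR-ABL1 and 0.049 for ABL1-XKR3, and own contacts turned to -0.78 for BCR and -0.88 for ABL1. In the first run, which is shallower, NUP214-XKR3 over the trans expectation gave -0.29, and own contacts 0.68 for ABL1 and -0.83 for NUP214. With genes widened by 100 kb, NUP214-XKR3 (0.88), ABL1-XKR3 (0.83), ABL1-XKR3 over expectation (-0.83) and own contacts of XKR3 (-0.93) passed, while NUP214-XKR3 over expectation (-0.54) and own contacts of BCR (0.68) and NUP214 (-0.54) did not. Relative to contacts between chromosomes, BCR-ABL1 gave 0.78, BCR-NUP214 0.73, NUP214-XKR3 -0.73, own contacts of ABL1 -0.59 and of XKR3 -0.88. Relative to contacts outside the bin itself, BCR-NUP214 gave 0.73, NUP214-XKR3 -0.15 and own contacts of ABL1 -0.39. With both runs added, an alternative chosen after seeing the data like the expectation from other chromosomes, NUP214-XKR3 over expectation gave -0.78.

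Without the 0.25 h libraries, where fewer libraries raise the smallest p to 0.0222, the values were 0.96 for BCR-ABL1, 0.84 for BCR-NUP214, -0.96 for NUP214-XKR3 over expectation, and 0.96, 0.84 and -0.60 for own contacts of BCR, ABL1 and NUP214. Without the 12 h libraries they were 0.96, 0.72, -0.72, 0.96, 0.60 and -0.60. With 1 library left out, rho was 0.97 throughout for BCR-ABL1 and for own contacts of BCR. It was 0.53 to 0.97 for NUP214-XKR3, 0.83 to 0.92 for BCR-NUP214 and 0.61 to 0.92 for ABL1-XKR3. Over expectation it was -0.83 to -0.39 for BCR-ABL1, -0.97 to -0.83 for NUP214-XKR3, 0 to 0.31 for BCR-NUP214 and -0.64 to -0.15 for ABL1-XKR3. For own contacts it was 0.75 to 0.92 for ABL1, -0.92 to -0.75 for NUP214 and -0.92 to -0.61 for XKR3.

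By limma, calls between 0.25 h and 12 h numbered 101199 for contacts outside the bin, 64838 inside it, 68591 between chromosomes and 138 for pairs. The first run gave 34417, 21412, 6010 and 27 over fewer features tested. Median-of-ratios scaling gave 8727 between chromosomes and 23 for pairs, and no filter gave 44 pairs. With 1 library left out the counts were 84597 to 111906, 56933 to 68175, 38533 to 69418 and 65 to 144. The replicate block left rho unchanged (0.98 for BCR-ABL1, adjusted p = 0.0208 by the exact permutation test) and changed no trend's call; it gave 105172, 65893, 72091 and 130 limma calls. Of the gene counts it changed those inside bins of ABL1 and NUP214, given above.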
